A study of Mus musculus with 4 samples.

Results

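The interferon response genes are the genes that cells switch on when interferons, the cytokines of antiviral defence, bind their receptors. They were taken as a fixed list of 35 genes, of which 30 were measured here, out of 12393 genes on the array with a probe set annotated to 1 gene. Where a gene had several such probe sets, as 8 of the members did, the brightest by mean log2 signal stood for it. The probe set for Isg15, a ubiquitin-like protein, was shared with another gene, and Oas1g, Ifi44, Xaf1 and Ly6e were not analysed here.

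The data are 4 Affymetrix 430A arrays, 1 for each group: whole testis of adult XX/Sry males, whole testis of adult W/Wv males, and isolated seminiferous tubules of adult males of each genotype. XX/Sry males are chromosomally female mice that a Sry transgene turns into males, and the W/Wv males, purchased animals of a WB by B6 cross, carry a pair of mutant alleles of the receptor kinase gene Kit in every cell. Germ cells are scarce in the testes of both, so both serve as hosts for transplanted germ cells, and the somatic environment is what the study compared. Tubules were freed from the tunica, digested for 40 min at 37 °C in 5 mg/ml collagenase and rinsed over a 70 µm strainer to take away interstitial cells. The sources used here do not give the number of animals behind each array, the promoter of the Sry transgene, the XX/Sry strain or whether both preparations came from the same males.

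Type I interferons signal through the receptor chains Ifnar1 and Ifnar2 and the kinases Jak1 and Tyk2 to a complex that includes Stat2 and Irf9 and binds the interferon-stimulated response element (ISRE). Interferon gamma signals through Ifngr1 and Ifngr2, and many of its target genes carry a gamma-activated site (GAS) or respond through Irf1. In the testis, Sertoli cells, Leydig cells and macrophages can all mount this response, and testicular macrophages lie mainly in the interstitium between the tubules.

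Values are deposited MAS5 signals, a linear intensity scaled within each array. With 1 array in each group there are no replicates, so a fold is the ratio of 2 arrays and has no error of its own. The highest signal among 27 bacterial control probe sets with no mouse target served as the background bound of an array; it was 63.9 in XX/Sry and 76.3 in W/Wv whole testis and, for tubules, 61.0 in XX/Sry and 46.1 in W/Wv. A fold against a signal below its bound is given as "at least", computed against the bound. Signals are not compared between genes, since probe sets differ in brightness. A gene was called by the study's own rule, 2-fold or more the same way in both pairs of arrays.

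Of the 30 measured members, 25 were above the bound on all 4 arrays. Bst2 and Ifit1 were above it on 3 arrays, Mx2 on 2, Mx1 on 1 and Ifit2 on 0. By array, 28 members were above the bound in XX/Sry and 26 in W/Wv whole testis and, for tubules, 26 in XX/Sry and 29 in W/Wv. Their median signal was 223.75 in XX/Sry and 177.05 in W/Wv whole testis and, for tubules, 179.5 in XX/Sry and 134.95 in W/Wv, while the median of all probe sets was 171.8 and 182.75 in whole testis and 158.9 and 156.75 in tubules, XX/Sry before W/Wv. Most of the response genes were thus detectable in both genotypes and both preparations, and the members below the bound on 2 or more arrays were Mx1, Mx2 and Ifit2, all antiviral effectors. The plot of all members' signals shows how far the 4 arrays lay apart for each gene.

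**Figure D1:**
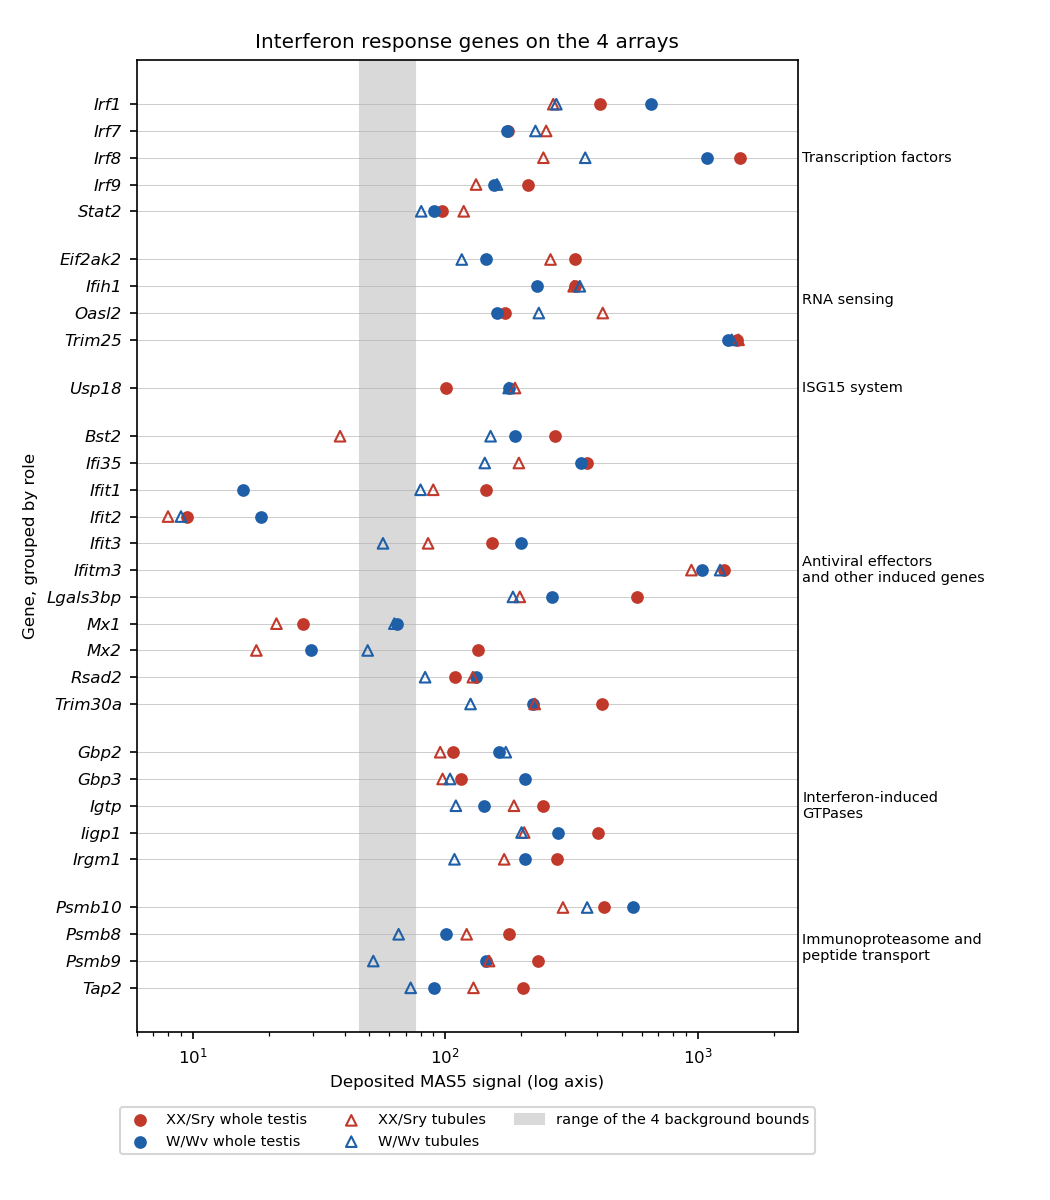
Deposited signals of the 30 measured members on a log axis, grouped by role, with XX/Sry in red, W/Wv in blue, whole testis as filled circles and tubules as open triangles; each point is 1 array. The grey band spans the 4 background bounds, 46.1 to 76.3, and Ifit2 lies left of it on all 4 arrays.

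The tissue labels were set against marker genes. All 11 measured Sertoli cell markers were above the bound on every array. The 16 macrophage markers summed to 20890 signal units in XX/Sry and 16268 in W/Wv whole testis, and to 4675 in XX/Sry and 6329 in W/Wv tubules. Those of 5 Leydig cell markers summed to 57785 and 36461 in whole testis and to 21820 and 9134 in tubules, XX/Sry before W/Wv, and each of the 5 was above the bound in tubules. The 8 germ cell markers summed to 960 in XX/Sry whole testis, against 5152 in W/Wv whole testis, where all 8 were above the bound, and to 862 in XX/Sry and 788 in W/Wv tubules. The hybridisation spike controls on the W/Wv tubule array stood a median of 0.46 log2 above their mean over the arrays, against -0.18 to -0.09 on the other 3.

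The first comparison, XX/Sry over W/Wv, asks how the genotypes' somatic environments differ. The W/Wv males came from a WB by B6 cross and the XX/Sry strain is not given. Any difference in strain background therefore cannot be told apart from genotype here. In whole testis the 30 members had a median log2 ratio of 0.36, beside -0.10 over all genes, and 21 of them were above 0. In tubules their median was 0.09, beside 0.00 over all genes, and 18 of them were above 0. At 1.5-fold, a threshold chosen after the values were seen, 6 of 30 members were higher in XX/Sry in both preparations, against 5.04% of all genes. They were Eif2ak2, an RNA-sensing kinase, the antigen-processing genes Tap2, Psmb8 and Psmb9, Trim30a and the GTPase gene Igtp. Gbp2 was more than 1.5-fold lower in both, and so were the deposited signals of Mx1, most of which were below background. These 2 of 30 members stand beside 7.44% of all genes. In 15 members the ratio was above 0 in both preparations, in 6 it was below 0 in both, and in 9 the preparations went opposite ways. Over all genes 23.8% were above 0 in both, 30.4% below in both and 45.7% opposite.

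By the study's rule 1 of 30 members, Eif2ak2, was higher in XX/Sry, where 1.98% of all genes were called. In the other direction 1 member, Mx1, was lower, where 3.22% of all genes were called. Shares this small over 30 genes do not set the members apart from the array as a whole. Scaling to the spike controls gave 2 members higher, Eif2ak2 and Tap2, and 0 lower. That scaling raised all tubule genotype ratios alike, which put the median of all genes at 0.62 and that of the members at 0.72, and 18 of 30 members lay above the all-gene median with or without it. In an additive limma fit of genotype and preparation, which reads disagreement between the pairs as error and adjusts p-values over 22626 probe sets, 0 of 30 members were called for genotype, where 0.15% of probe sets were called. At an unadjusted p under 0.05 that fit had 2 members, 6.67% of them, against 8.74% of all probe sets.

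**Figure D2:**
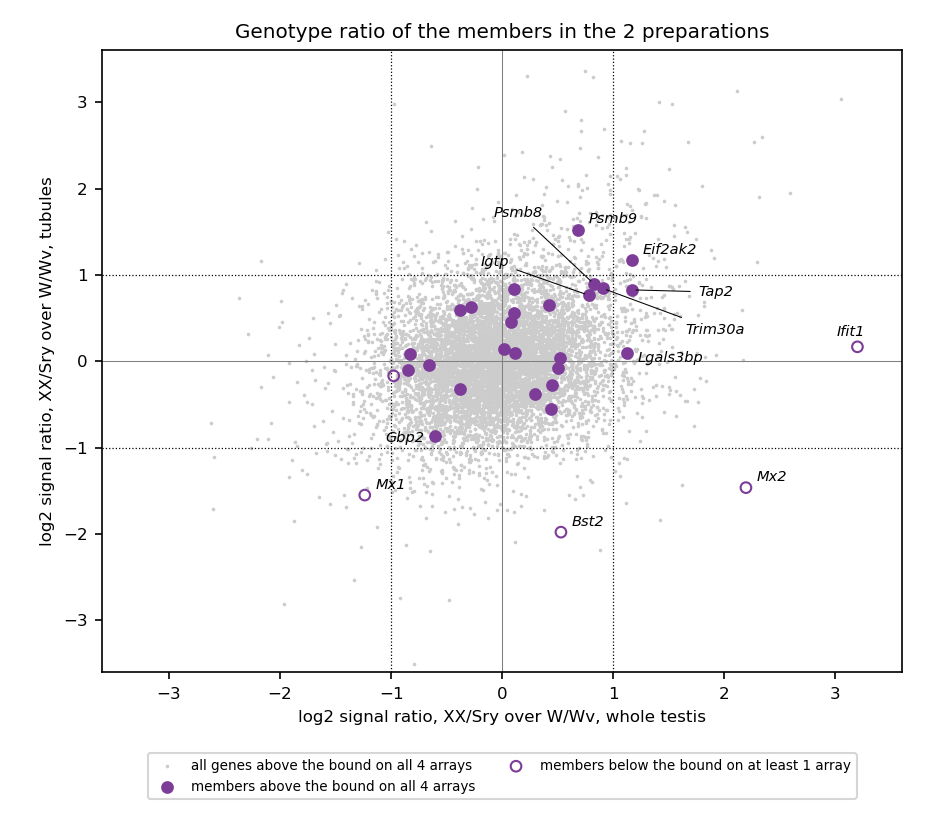
Log2 signal ratio of XX/Sry over W/Wv in whole testis (x axis) and in tubules (y axis); purple points are the 30 members, open where a signal was below the bound on at least 1 array, grey points the other genes above it on all 4, and dotted lines mark 2-fold. Eif2ak2 lies beyond both upper lines at 1.17 and 1.17, and Mx1 beyond both lower lines at -1.24 and -1.55.

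Among the RNA sensors, Eif2ak2 encodes PKR, the kinase that halts translation when it binds double-stranded RNA. Its signals were 326.2 in XX/Sry and 145.4 in W/Wv whole testis and, for tubules, 261.7 in XX/Sry and 116.5 in W/Wv. Both XX/Sry arrays lay above both W/Wv arrays, and the fold was nearly the same in each preparation, 2.24 (whole testis) and 2.25 (tubules). The limma estimate was 1.17 ± 0.41 (log2, SE), with an adjusted p of 0.427. The gene's other probe set read 155.7 in XX/Sry and 72.4 in W/Wv whole testis and, for tubules, 110.4 in XX/Sry and 67.0 in W/Wv, log2 ratios of 1.10 and 0.72. There the whole testis W/Wv signal was below its bound and the tubule difference fell short of 2-fold, so the call was lost when the probe sets were averaged, and it was also lost with 50 signal units added before the log.

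The other measured sensors differed less. Ifih1, which encodes the long RNA sensor MDA5, had 327.7 in XX/Sry and 230.8 in W/Wv whole testis and, for tubules, 323.2 in XX/Sry and 341.9 in W/Wv. Oasl2, of the oligoadenylate synthetase family, read 172.4 in XX/Sry and 160.5 in W/Wv whole testis and, for tubules, 421.4 in XX/Sry and 235.2 in W/Wv. The W/Wv whole testis array was thus the lowest for both of these genes. Trim25, a ubiquitin ligase that activates the sensor RIG-I, was even on all 4 arrays. Its signals were 1430.3 in XX/Sry and 1321.7 in W/Wv whole testis and, for tubules, 1453.7 in XX/Sry and 1366.5 in W/Wv. Its 3 probe sets disagreed on the genotype, and each gave nearly the same log2 ratio in either preparation: 0.11 and 0.09, 0.49 and 0.54, and -0.82 and -0.82.

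Of the 4 immunoproteasome and peptide transport genes, 3 were higher in XX/Sry in both preparations. Psmb8, Psmb9 and Psmb10 encode the inducible catalytic subunits that reshape the proteasome for antigen presentation, and Tap2 is a subunit of the pump that carries the peptides into the endoplasmic reticulum. Tap2 had 203.1 in XX/Sry and 90.4 in W/Wv whole testis, 2.25-fold higher, and, for tubules, 129.6 in XX/Sry and 73.1 in W/Wv, 1.77-fold higher. Psmb8 signals were 178.9 in XX/Sry and 100.9 in W/Wv whole testis and, for tubules, 121.8 in XX/Sry and 65.5 in W/Wv, 1.77- and 1.86-fold higher. For Psmb9 they were 234.3 in XX/Sry and 145.9 in W/Wv whole testis and, for tubules, 149.4 in XX/Sry and 52.0 in W/Wv, 1.61- and 2.87-fold higher. The W/Wv tubule signal of Psmb9 was close to its bound of 46.1. In each of these 3 genes every XX/Sry array lay above the W/Wv array of its preparation. Psmb10 went the other way in both preparations as deposited, although its tubule log2 ratio was 0.31 with spike scaling. Its signals were 426.2 in XX/Sry and 555.1 in W/Wv whole testis and, for tubules, 293.2 in XX/Sry and 365.5 in W/Wv. The median log2 ratio of the 4 genes was 0.75 (whole testis) and 0.86 (tubules). In the limma fit their adjusted p for genotype ran from 0.596 for Psmb9 to 0.832 for Psmb10.

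Psmb9, Tap1, Psmb8 and Tap2 are neighbours in the major histocompatibility region of chromosome 17 in the RefSeq gene table. Tap1, the partner subunit of Tap2, is not a member. It had 137.3 in XX/Sry and 166.2 in W/Wv whole testis and, for tubules, 340.4 in XX/Sry and 99.8 in W/Wv, log2 ratios of -0.28 and 1.77. Unlike its 3 neighbours, it was therefore not higher in XX/Sry in both preparations. Tap1 had 4 probe sets, and only the brightest was read here.

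The interferon-induced GTPases, which attack the vacuoles of intracellular pathogens, were split. Igtp, an immunity-related GTPase, read 244.6 in XX/Sry and 142.7 in W/Wv whole testis and, for tubules, 187.5 in XX/Sry and 110.4 in W/Wv, 1.71- and 1.70-fold higher. Irgm1, which restrains the other immunity-related GTPases, had 277.3 in XX/Sry and 206.5 in W/Wv whole testis and, for tubules, 171.5 in XX/Sry and 109.0 in W/Wv. Both genes were higher in XX/Sry in both preparations. Gbp2, a guanylate-binding protein gene, ran opposite, with 107.3 in XX/Sry and 163.1 in W/Wv whole testis and, for tubules, 95.7 in XX/Sry and 174.1 in W/Wv, 1.52- and 1.82-fold lower. Its second probe set was lower in XX/Sry in both preparations too, at -0.35 and -1.38. Gbp3 had 115.4 in XX/Sry and 207.4 in W/Wv whole testis and, for tubules, 97.8 in XX/Sry and 104.7 in W/Wv, so that W/Wv whole testis stood above the other 3 arrays. Iigp1 had log2 ratios of 0.52 and 0.03, and its second probe set gave -0.48 and 0.55, so the gene had no settled direction. Medians over the 5 genes were 0.43 (whole testis) and 0.03 (tubules).

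Among the antiviral effectors and other induced genes, Trim30a, which dampens Toll-like receptor signalling, had 418.2 in XX/Sry and 223.6 in W/Wv whole testis and, for tubules, 226.6 in XX/Sry and 126.2 in W/Wv. That made it 1.87- and 1.80-fold higher, with a limma estimate of 0.87 ± 0.39 (log2, SE) and an adjusted p of 0.559. Its second probe set gave 1.12 and 0.19. Lgals3bp, a secreted glycoprotein that binds galectins, had 575.8 in XX/Sry and 264.3 in W/Wv whole testis, 2.18-fold higher, but 197.8 in XX/Sry and 185.8 in W/Wv tubules. Its genotype difference was seen in whole testis and was 1.06-fold in tubules; the difference between the preparations was not tested.

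Several effectors were too dim for a fold. Mx1, a GTPase that blocks influenza virus in the nucleus, had 27.4 in XX/Sry and 64.6 in W/Wv whole testis and, for tubules, 21.5 in XX/Sry and 63.0 in W/Wv. Only the W/Wv tubule signal was above its bound, so the call as lower in XX/Sry rested on signals within background, and the bounded fold in tubules was at least 1.03. Ifit1, which binds foreign RNA caps, had 145.9 in XX/Sry and 15.9 in W/Wv whole testis, at least 1.91-fold higher, and 89.8 in XX/Sry and 80.0 in W/Wv tubules. Mx2 had 135.0 in XX/Sry and 29.5 in W/Wv whole testis, at least 1.77-fold higher, and 17.9 in XX/Sry and 49.4 in W/Wv tubules. XX/Sry whole testis was thus the brightest array for both Ifit1 and Mx2. Bst2, the tetherin that holds budding virus on the cell surface, had 272.4 in XX/Sry and 188.8 in W/Wv whole testis and, for tubules, 38.4 in XX/Sry and 151.5 in W/Wv. Its XX/Sry tubule signal was below the bound, so it was lower there by at least 2.48-fold.

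Ifit3, Rsad2, Ifi35 and Ifitm3 differed by less than 1.55-fold between the genotypes in each preparation. Ifit3, a partner of Ifit1, had log2 ratios of -0.38 (whole testis) and 0.59 (tubules), and Rsad2, which makes a chain-terminating nucleotide, had -0.28 and 0.63. The 3 probe sets of Rsad2 were each lower in XX/Sry whole testis but split in tubules, and 1 of them was below the bound on all 4 arrays and another on 1. Ifi35 had 0.08 and 0.45, and Ifitm3, which blocks viral entry at endosomes, had 0.30 and -0.38. Ifitm3 signals were 1278.5 in XX/Sry and 1040.5 in W/Wv whole testis and, for tubules, 945.7 in XX/Sry and 1228.9 in W/Wv. Ifit2 was below the bound on all 4 arrays, at 8.0 to 18.7. Usp18, the protease that removes Isg15 and damps the type I receptor, had 100.5 in XX/Sry and 178.7 in W/Wv whole testis and, for tubules, 189.3 in XX/Sry and 178.7 in W/Wv, so its lowest array was XX/Sry whole testis.

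The transcription factors of the response had genotype medians near 0 as deposited, 0.10 (whole testis) and -0.04 (tubules, or 0.59 with spike scaling) over 5 genes. Irf7, the amplifier of type I interferon production, was even between genotypes, with 177.3 in XX/Sry and 175.4 in W/Wv whole testis and, for tubules, 251.5 in XX/Sry and 228.1 in W/Wv. Irf1 had 412.7 in XX/Sry and 653.0 in W/Wv whole testis and, for tubules, 268.4 in XX/Sry and 276.0 in W/Wv. Irf9 had log2 ratios of 0.45 and -0.28 and Stat2 of 0.10 and 0.56. The second probe set of Stat2, at 100.1 in XX/Sry and 7.1 in W/Wv whole testis and at 9.3 in XX/Sry and 66.8 in W/Wv tubules, had log2 ratios of 3.82 and -2.84 and was above the bound on 2 arrays.

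A looser threshold of 1.5-fold in both preparations was chosen after the values were seen. Members past it the same way in both are called even here, though their folds could differ between preparations. Past it, 6 of 30 members (20%) were higher in XX/Sry, against 5.04% of all genes: Eif2ak2, Tap2, Psmb8, Psmb9, Trim30a and Igtp. Another 2 of 30 (6.67%) were lower, against 7.44% of all genes: Mx1 and Gbp2. The lower count of 2 was 1, Mx1 without Gbp2, under median centring, quantile normalisation, averaged probe sets and spike scaling, and 0 with 50 signal units added. The higher count was 6 under both normalisations, with 5.51% and 6.45% of all genes, and 5 with averaged probe sets, which dropped Trim30a, with 4.79%. With 50 signal units added the higher members numbered 2, Eif2ak2 and Trim30a, with 2.49% of all genes, and with spike scaling they numbered 9, with 11.4%. The Pearson correlation between the genotype ratios of whole testis and tubules was 0.16 over the 30 members and 0.48 over the 25 above the bound on all 4 arrays, beside 0.087 over all genes and 0.26 over the 8065 genes above the bound on all 4. These are descriptions of genes measured on the same 4 arrays, and genes are not independent replicates.

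Promoters of the even members are shown because the ISRE and GAS are where the factors of both pathways bind. The ISRE core was searched as GAAANNGAAA (10 letters) and the GAS as TTCNNNGAA (9 letters), on both strands, in 300 bases from 250 before to 50 after the RefSeq start site (GRCm38.p6). Of the 25 measured members with a promoter in the table, 13 (52%) held the ISRE core and 9 (36%) the GAS, beside 3.84% and 8.45% of 9887 genes on the array. Of 62 other measured interferon pathway genes, 22 (35.5%) held the ISRE core and 16 (25.8%) the GAS. The 13 members with an ISRE match had median genotype log2 ratios of 0.43 (whole testis) and 0.56 (tubules), and the 12 without had 0.11 and 0.09. Above 0 in whole testis were 9 of 13 with a match and 9 of 12 without, and in tubules 8 of 13 with a match and 7 of 12 without, so the signs did not separate the sets. A match is a description of letters, not a measured site, and members were listed for their known interferon response.

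Of the 8 members past 1.5-fold, 6 had a promoter in the table and 5 of those held a match; Psmb9 held none of these letters in its window, and Tap2 and Mx1 are named only. The 5 promoters are given 5' to 3' on the strand of the gene, with matches in capitals, and in none of them do the 2 motifs share a base. Eif2ak2 (chr17:78882523-78882822, minus strand) held a GAS starting 178 bases before the start site and an ISRE core starting at base 19 of the transcript. Igtp (chr11:58199306-58199605, plus strand) held a GAS starting 45 bases and an ISRE core starting 34 bases before it. Psmb8 (chr17:34197945-34198244, plus strand) held a GAS 97 bases before it. Trim30a (chr7:104465144-104465443, minus strand) and Gbp2 (chr3:142620413-142620712, plus strand), one higher and one lower in XX/Sry, each held an ISRE core on the opposite strand, 36 and 59 bases before it.
Eif2ak2: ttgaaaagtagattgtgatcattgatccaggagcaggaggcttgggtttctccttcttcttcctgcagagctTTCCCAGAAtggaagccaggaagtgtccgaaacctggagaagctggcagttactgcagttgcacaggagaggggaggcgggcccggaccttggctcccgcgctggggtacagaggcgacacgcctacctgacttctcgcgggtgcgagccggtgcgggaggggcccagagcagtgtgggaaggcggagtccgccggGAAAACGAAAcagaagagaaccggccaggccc
Igtp: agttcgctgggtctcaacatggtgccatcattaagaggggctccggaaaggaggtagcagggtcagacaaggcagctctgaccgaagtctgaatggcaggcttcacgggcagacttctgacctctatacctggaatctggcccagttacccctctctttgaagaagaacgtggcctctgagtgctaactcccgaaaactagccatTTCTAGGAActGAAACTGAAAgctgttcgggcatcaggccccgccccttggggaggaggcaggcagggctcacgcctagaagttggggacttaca
Psmb8: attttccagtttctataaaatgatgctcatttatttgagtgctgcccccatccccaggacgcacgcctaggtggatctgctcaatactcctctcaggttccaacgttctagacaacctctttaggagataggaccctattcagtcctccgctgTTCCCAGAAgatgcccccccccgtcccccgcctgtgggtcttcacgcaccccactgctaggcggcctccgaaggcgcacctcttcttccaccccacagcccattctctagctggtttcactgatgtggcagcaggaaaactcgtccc
Trim30a: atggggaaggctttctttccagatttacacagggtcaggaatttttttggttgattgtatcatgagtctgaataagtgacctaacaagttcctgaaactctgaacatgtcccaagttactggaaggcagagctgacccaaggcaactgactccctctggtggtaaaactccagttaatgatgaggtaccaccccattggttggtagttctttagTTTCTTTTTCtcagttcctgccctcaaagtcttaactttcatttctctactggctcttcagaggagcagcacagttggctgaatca
Gbp2: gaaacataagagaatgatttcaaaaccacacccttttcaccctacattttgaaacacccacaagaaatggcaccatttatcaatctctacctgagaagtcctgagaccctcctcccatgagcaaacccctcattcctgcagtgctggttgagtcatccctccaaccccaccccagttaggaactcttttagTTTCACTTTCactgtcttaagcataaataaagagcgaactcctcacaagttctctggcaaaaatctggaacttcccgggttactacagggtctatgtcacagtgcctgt

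The rest of the pathway was set beside the members. Over all genes 1.98% were called higher and 3.22% lower in XX/Sry, and the small counts below do not set these lists apart from the array. Of 14 measured ligand and receptor genes, 0 were called higher and 1 lower in XX/Sry, Ifna11, which was below the bound on all arrays. No interferon gene was above the bound on all 4 arrays, but Ifnab was above it on 3, Ifna1 on 2, and Ifna5 and Ifnb1 on 1 each. Ifng and the other measured interferon genes were below it on each. The receptor genes were all above it: Ifnar1 had 598.1 in XX/Sry and 435.5 in W/Wv whole testis and, for tubules, 754.8 in XX/Sry and 1301.9 in W/Wv, and Ifnar2 had 1083 in XX/Sry and 904.1 in W/Wv whole testis and, for tubules, 728.9 in XX/Sry and 533.9 in W/Wv. The receptors were thus read on every array while no ligand was above the bound on all of them. Of 10 genes of signalling and its brakes, 0 were called in either direction. Of 13 sensors and inducers, 0 were higher and 1 lower, Zbp1, below the bound on all arrays. Of 43 further interferon-stimulated genes, 0 were called in either direction, with median log2 ratios of 0.02 (whole testis) and 0.10 (tubules). The wider set of stimulated genes therefore had a lower median than the 30 members in whole testis and a like one in tubules.

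**Figure D3:**
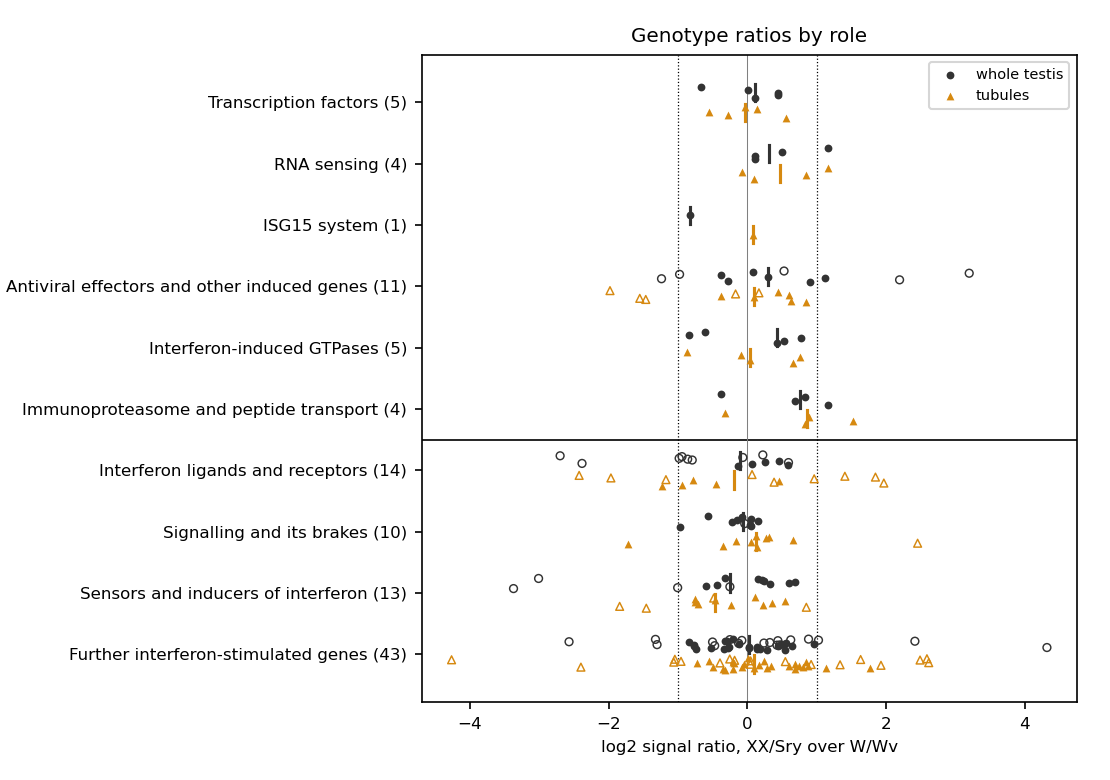
Log2 signal ratio of XX/Sry over W/Wv for each gene, by role, in whole testis (dark circles) and tubules (orange triangles); open symbols mark genes below the bound on at least 1 array, short bars the group medians, the horizontal line separates members from other pathway genes, and dotted lines mark 2-fold. The immunoproteasome and peptide transport genes have the medians 0.75 and 0.86.

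Cell type markers differed between the genotypes as well, but several lists did not keep the same direction in both preparations. As deposited, the preparations went opposite ways in 12 of 16 macrophage, 7 of 11 Sertoli cell and 0 of 5 Leydig cell markers. The Sertoli cell markers had median log2 ratios of -0.03 (whole testis) and -0.30 (tubules, or 0.33 with spike scaling). The macrophage markers had median log2 ratios of 0.36 (whole testis) and -0.48 (tubules, or 0.15 with spike scaling). Endothelial markers had 0.80 and 0.23 over 10 genes, and Leydig cell markers 0.63 and 1.34 over 5 genes. Lymphocyte and NK cell markers summed to 753 in XX/Sry and 721 in W/Wv whole testis, and to 517 in XX/Sry and 556 in W/Wv tubules, and of these 13 genes 5 were above the bound in XX/Sry and 6 in W/Wv whole testis, with 3 in XX/Sry and 8 in W/Wv tubules. Of the CD3 chains, Cd3d and Cd3g were below the bound on all 4 arrays, and Cd3e was above it in XX/Sry whole testis at 116.8 and in W/Wv tubules at 65.8. Germ cell markers had -3.06 (whole testis) and 0.45 (tubules). The part of macrophages, lymphocytes, endothelial, Leydig, Sertoli and germ cells in the members' ratios was not tested. In bulk tissue, fewer cells of a type and less RNA per cell cannot be told apart.

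The second comparison, tubules over whole testis, asks which signals go with the interstitium that collagenase removes. The members had median log2 ratios of -0.55 in XX/Sry and -0.34 in W/Wv, both below the -0.02 and -0.15 over all genes. In 18 of 30 the ratio was below 0 in both genotypes, in 3 it was above 0 in both, and in 9 it was neither. Those 9 include Usp18, whose ratio was 0 in W/Wv. Over all genes 34.4% were below 0 in both, 24.9% above in both and 40.7% neither. By the 2-fold rule 0 members were higher in tubules, where 1.32% of all genes were called, and 1 was lower, Irf8, where 5.74% were called. The limma fit called 1 of 30 members, again Irf8, where 1.22% of probe sets were called. At an unadjusted p under 0.05 it had 8 members (26.7%), against 13.9% of all probe sets.

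Irf8, a factor needed for the development of macrophages and dendritic cells, had 245.3 in XX/Sry tubules and 1474 in XX/Sry whole testis, 6.01-fold lower. In W/Wv it had 359.1 in tubules and 1089 in whole testis, 3.03-fold lower. Both tubule arrays lay far below both whole testis arrays. The limma estimate was -2.09 ± 0.31 (log2, SE), with an adjusted p of 0.00902, and without a trend on mean signal in the moderated test the adjusted p was 0.554. The second probe set had log2 ratios of -2.60 in XX/Sry and -1.80 in W/Wv. Beside it, 12 of 16 macrophage markers were at least 2-fold lower in tubules in both genotypes, with medians of -2.50 in XX/Sry and -1.65 in W/Wv, and 5 of 5 Leydig cell markers were too, with medians of -1.77 and -2.35. The part of macrophages in the fall of Irf8 was not tested.

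**Figure D4:**
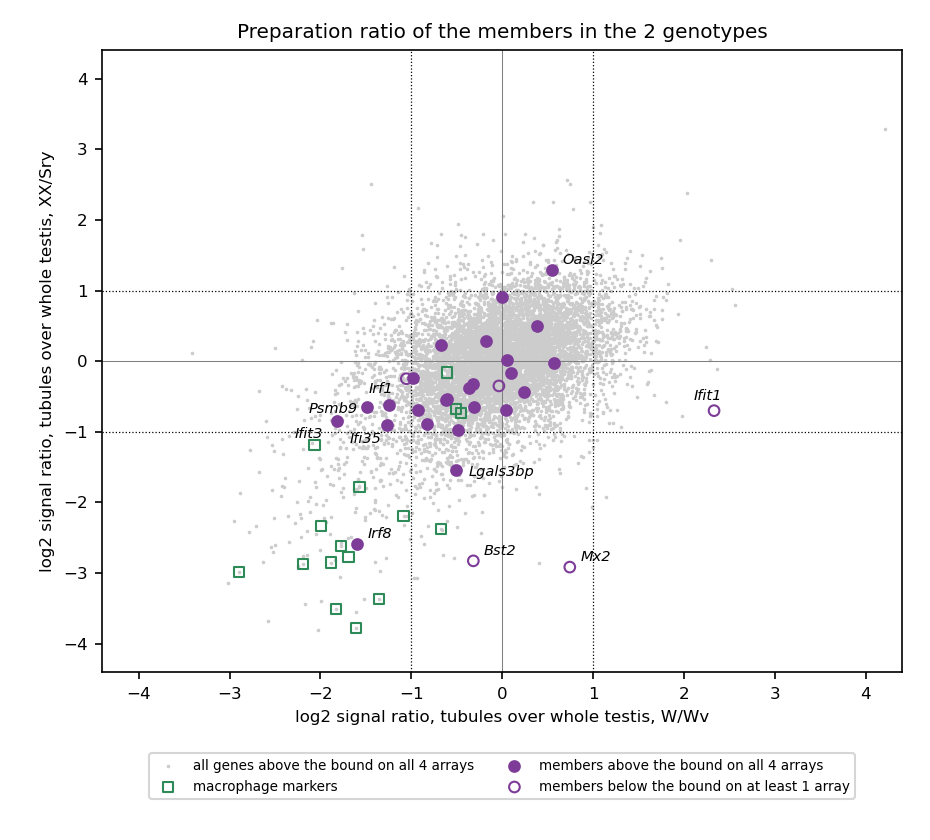
Log2 signal ratio of tubules over whole testis in W/Wv (x axis) and in XX/Sry (y axis); purple points are the 30 members, open where a signal was below the bound on at least 1 array, green squares 16 macrophage markers, grey points the other genes above it on all 4, and dotted lines mark 2-fold. Irf8 lies among the macrophage markers at -1.60 and -2.59.

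Other members missed the 2-fold rule but had lower signals in tubules of both genotypes. Ifi35, a nuclear partner of Nmi, had 196.1 in XX/Sry tubules against 365.1 in XX/Sry whole testis, and 143.7 in W/Wv tubules against 344.7 in W/Wv whole testis. Irf1 had 268.4 in XX/Sry tubules against 412.7 in whole testis, and 276.0 in W/Wv tubules against 653.0 in whole testis. Trim30a was 1.85-fold lower in XX/Sry and 1.77-fold lower in W/Wv. Its second probe set had log2 ratios of -0.54 in XX/Sry and 0.40 in W/Wv, so the probe sets disagreed in W/Wv. There the second one was below the bound in whole testis. For Ifit3 the fall was 1.80-fold in XX/Sry and 3.53-fold in W/Wv. All 4 immunoproteasome and peptide transport genes were lower as well, with medians of -0.60 in XX/Sry and -0.61 in W/Wv. Psmb9 in W/Wv reached 2.81-fold, with a tubule signal close to the bound. The wider list held Psme1, a proteasome activator subunit, and Ifitm2 as the 2 of 43 genes called lower in tubules. Over all genes 5.74% were called so, and this count does not set the list apart. Lgals3bp was 2.91-fold lower in XX/Sry and 1.42-fold lower in W/Wv.

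In XX/Sry, Bst2 was lower in tubules than in whole testis by at least 4.26-fold, and in W/Wv by 1.25-fold. A few members ran the other way. Oasl2 had 421.4 in XX/Sry tubules against 172.4 in whole testis, 2.44-fold higher, and 235.2 in W/Wv tubules against 160.5 in whole testis, 1.47-fold higher. Irf7 was 1.42-fold higher in XX/Sry and 1.30-fold higher in W/Wv tubules as deposited, the W/Wv log2 ratio being -0.17 with spike scaling, and Trim25 differed by 1.02- and 1.03-fold. As deposited, the RNA sensors had medians of 0.00 in XX/Sry and 0.30 in W/Wv over 4 genes (-0.01 and -0.25 with spike scaling), although Eif2ak2 itself was 1.25-fold lower in tubules of both.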

How the data were processed

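Gene expression was measured on 4 arrays, 1 for each genotype and preparation. The deposited values are array intensity on a linear scale, calculated with MAS5 per the submitters' processing notes, with 0 value columns unused. The 22690 probe sets include 64 controls, and the other 22626 entered the tests. By the platform's annotation 20380 have 1 gene, 691 several and 1555 none; the deposited signals were used without further scaling. The detection calls were not used here, and the number of arrays limits the precision.

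Ratios are log2 of deposited signals. The additive fit of genotype and preparation has 1 residual degree of freedom, and any interaction goes into its error; it was run with limma 3.58.1 in R 4.3.3 (moderated, two-sided, 9.98 prior degrees of freedom with a trend on mean signal, Benjamini-Hochberg over 22626 probe sets for each comparison). Its script was tested on simulated data. The p-values rest on disagreement between pairs of arrays, taken mostly from other probe sets (9.98 prior against 1 residual degree of freedom). They do not measure the spread between animals.

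The members and lists were chosen with earlier results of these data known. All members are named; those called, or with the 5 highest or lowest mean ratios among the brighter ones, are given with all signals, and others are given for their role. The alternatives were median centring, quantile normalisation, an offset of 50, averaged probe sets, a filter at each array's median signal, signals set to the bound, a fit without a trend, and, chosen after seeing the data, spike control scaling. Promoters come from RefSeq (GRCm38.p6) and were found for 29 of 35 listed members. Genome coordinates of probe sets were not used here.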

Additional observations from a re-analysis of the deposited data

Results flagged for a closer look

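The members Ifit1, Mx2 and Bst2 had genotype ratios that differed widely between the preparations, each on 1 array per group, and the difference was not tested. The log2 ratio of XX/Sry over W/Wv in tubules minus that in whole testis was -3.03 for Ifit1, -3.66 for Mx2 and -2.51 for Bst2. In Mx2 and Bst2 the ratio was above 0 in whole testis and below 0 in tubules. In Ifit1 the ratio of tubules over whole testis was -0.70 in XX/Sry and 2.33 in W/Wv. In each of the 3 genes at least 1 of the 4 signals was below the background bound, so the sizes are those of the deposited signals and not of folds above background.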

How the results depend on the processing

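The choice of scaling and of the treatment of dim signals decided which single members passed the 2-fold rule. The count of members higher in XX/Sry in both preparations, 1 as deposited, was 0 with an offset of 50 and 0 with averaged probe sets, and 2 with spike control scaling, which was chosen after seeing the data. The count of members lower in XX/Sry, 1 as deposited (Mx1), was 0 with quantile normalisation, an offset of 50, spike scaling, the filter on signals and signals set to the bound. The count of members lower in tubules, 1 as deposited, was 2 with spike scaling (Irf8 and Lgals3bp). Irf8 was called lower in tubules by the 2-fold rule under each scaling, the offset, averaged probe sets and signals set to the bound. Spike scaling moved the median of the members' genotype ratio in tubules to 0.72, and the median of all genes moved to 0.62 with it. The limma count for preparation, 1, was 0 without a trend. The adjusted p of Irf8 ran from 5.53e-06 to 0.554 over the alternatives, and that of Eif2ak2 for genotype from 0.314 to 0.739. Of 42 ratios of named members under each setting, 3 moved by over 1.5-fold with an offset of 50 and 11 with spike scaling, and the sign turned in 6 with spike scaling, in 3 with quantile normalisation and in 1 with median centring. With spike scaling the genotype ratios in tubules of Irf1, Irf8, Psmb10 and Ifitm3 turned to 0.59, 0.08, 0.31 and 0.25. Signals near background limit the Mx and Ifit genes. No paired analysis was possible because, with 1 array in each group, no replicate numbers pair the samples beyond the preparation term that the additive fit already holds.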
